A study of Mus musculus with 23 samples.

Results

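Potassium channel genes were followed through medullary thymic epithelial cells (mTECs) of mice with and without Aire. Members were the genes whose mouse symbol begins with Kcn, then letters and a digit, among the Ensembl identifiers of the count table. Pseudogenes, antisense genes and Kcnj5 were left out. This gave 92 protein coding genes of 53402 identifiers. Of these, 40 encode voltage-gated pore subunits, 14 inward rectifiers, 14 channels with 2 pore domains (K2P) and 16 auxiliary subunits. The other 8 are pore subunits of the Kcnma, Kcnn, Kcnt and Kcnu genes, mostly gated by calcium or sodium. A filter on low counts left 66 of the 92 for testing. The other 26 were too low in these libraries and are described by their levels only.

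Potassium channels let potassium ions leave or enter a cell along their gradient and so set its membrane potential. Voltage-gated channels open on depolarisation, inward rectifiers hold the resting potential, K2P channels carry background current, and auxiliary subunits change the gating or delivery of a pore. Most of these genes are known from neurons, muscle, kidney, pancreatic islets and other peripheral tissues. mTECs are known for transcribing many such tissue-restricted genes for presentation to developing T cells, a programme in which the nuclear protein Aire takes a known part.

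Total RNA was sequenced from thymic epithelial cells of C57BL/6 mice sorted on EpCAM, without DAPI, Ly51 or CD45 staining, and split by MHC class II into a high (mTEChi) and a low (mTEClo) gate. The Aire knockout (KO) groups held 4 mTEChi and 4 mTEClo libraries, and the wild type (WT) groups 7 mTEChi and 8 mTEClo libraries. Every KO library came from males, 2 aged 5 weeks and 2 aged 6 weeks per gate. In WT mTEChi, 5 libraries were male and 2 female, 5 of 5 weeks and 2 of 4 weeks. In WT mTEClo, 5 were male and 3 female, 3 of 5 weeks and 5 of 4 weeks. The labels do not describe the Aire allele, and do not say whether libraries came from separate animals, so p-values measure the spread between these libraries, which may be technical.

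Library totals lay between 1602125 and 3938588 counts, and levels are given as CPM, the counts of a gene per 1000000 counts of its library after TMM scaling. Aire, the targeted gene, averaged 29.2 ± 11.6 CPM in KO mTEChi and 818 ± 56.0 CPM in WT mTEChi, and 2.74 ± 3.53 CPM in KO mTEClo and 69.2 ± 33.4 CPM in WT mTEClo (SD, n = 4, 7, 4 and 8). Epcam averaged 223.9 and 243.6 CPM in KO and WT mTEChi, and 248.7 and 253.7 CPM in KO and WT mTEClo. A set of 6 KO libraries stood apart: all 4 of KO mTEChi and replicates 3 and 4 of KO mTEClo held 0% of counts in mitochondrially encoded genes, against 0.261% to 0.527% in the other 17. Every KO result in mTEChi rests on such libraries, so results are also given with a term for these 6 libraries in the fit, and those in mTEClo without replicates 3 and 4. Both were chosen after the data were seen. With all of KO mTEChi in the set, the term is estimated only from KO mTEClo, as replicates 3 and 4 against 1 and 2. These pairs also differ in age, 6 against 5 weeks, and in depth, 3272356 and 3938588 against 1883769 and 1639231 counts. Any mTEChi result with the term therefore carries this mTEClo difference over to mTEChi.

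Members together summed to 2344 ± 239 CPM in KO mTEChi and 2353 ± 150 CPM in WT mTEChi, and to 2297 ± 80.4 CPM in KO mTEClo and 2513 ± 57.5 CPM in WT mTEClo (SD). Libraries of KO mTEChi, of 2528049 to 3106026 counts, had counts for 63 to 72 of the 92 members, and those of WT mTEChi, of 1602125 to 3231079 counts, for 83 to 91. In mTEClo it was 69 to 76 members in KO and 69 to 80 in WT. Over all identifiers, 24991 to 26624 had counts in libraries of KO mTEChi and 28028 to 32252 in those of WT mTEChi. In mTEClo it was 23449 to 27046 in KO and 23409 to 26918 in WT. No library of KO mTEChi had a count for 12 members, whereas each of the 92 had a count somewhere in WT mTEChi. A count of 0 over all libraries allows up to 0.299 CPM in KO mTEChi and 0.161 CPM in WT mTEChi, by counting error only. The mean level was highest in KO mTEChi for 18 of the 92 members, in WT mTEChi for 48, in KO mTEClo for 14 and in WT mTEClo for 12. Shares over all genes were not taken for the members without a count or for the group of highest mean. The heatmap of the tested members shows these levels library by library.

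**Figure D1:**
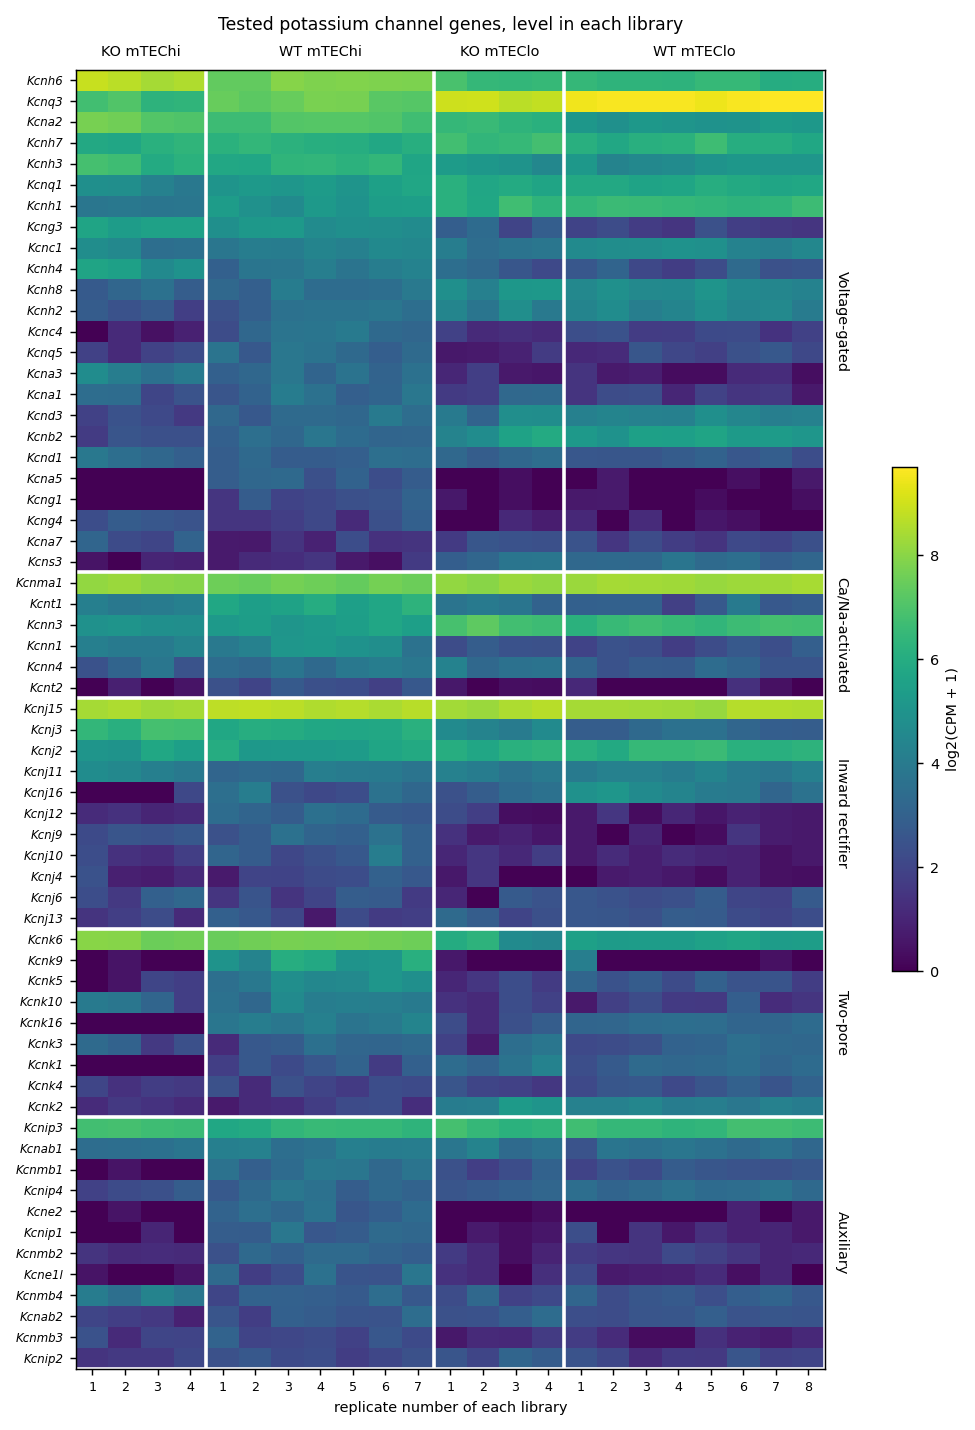
Each row is a tested potassium channel gene and each column 1 library, grouped as KO mTEChi, WT mTEChi, KO mTEClo and WT mTEClo, with the replicate number below; colour gives log2(CPM + 1). Kcnk16, Kcna5, Kcng1 and Kcnk1 are darkest in the 4 KO mTEChi columns and lighter in the 7 WT mTEChi columns, while Kcnj15 is bright throughout.

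A few members stood far above the rest. Per kilobase of exon, the highest members in KO mTEChi were Kcnh6, a channel of the ERG group, at 112.6 CPM, Kcnj15, an inward rectifier of epithelia, at 53.8, Kcnk6, a K2P background channel, at 52.9, and Kcnip3, a calcium-binding partner of A-type channels, at 29.65. In WT mTEChi the same scale gave 63.6 CPM per kilobase for Kcnj15, 59.7 for Kcnh6, 47.6 for Kcnk6, 22.02 for Kcnip3 and 11.9 for Kcnh3, of the ELK group. In KO mTEClo the highest were Kcnj15 at 55.8, Kcnq3, a subunit of the neuronal M-type channel, at 31.7, Kcnh6 at 26.9, Kcnip3 at 24.8 and Kcnma1, the pore of the large-conductance calcium-activated (BK) channel, at 16.3. In WT mTEClo they were Kcnj15 at 54.6, Kcnq3 at 52.6, Kcnip3 at 26.8, Kcnh6 at 22.1 and Kcnma1 at 18.8.

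RefSeq start sites on GRCm38.p6 were available for 67 of the 92 members. The 250 bases before the start are shown for the 3 largest falls and the 3 largest rises in KO mTEChi among members with 1 such window, because CG dinucleotides, printed in capitals, are known to separate broadly used promoters from tissue-restricted ones. The largest falls were at Kcnk16 (chr14:20269270-20269519 on the minus strand), Kcna5 (chr6:126535556-126535805 on the minus strand) and Kcnk1 (chr8:125994852-125995101 on the plus strand). Sequences read 5′ to 3′ toward the start.
Kcnk16: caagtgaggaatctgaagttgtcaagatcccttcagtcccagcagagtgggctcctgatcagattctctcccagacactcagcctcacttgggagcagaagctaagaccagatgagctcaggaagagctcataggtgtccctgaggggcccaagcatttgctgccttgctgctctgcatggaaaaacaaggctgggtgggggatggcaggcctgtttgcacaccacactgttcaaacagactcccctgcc
Kcna5: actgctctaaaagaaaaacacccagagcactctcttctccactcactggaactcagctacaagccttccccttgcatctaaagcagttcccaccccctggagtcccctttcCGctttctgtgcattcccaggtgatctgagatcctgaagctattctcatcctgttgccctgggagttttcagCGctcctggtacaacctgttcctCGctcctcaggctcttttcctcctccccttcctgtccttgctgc
Kcnk1: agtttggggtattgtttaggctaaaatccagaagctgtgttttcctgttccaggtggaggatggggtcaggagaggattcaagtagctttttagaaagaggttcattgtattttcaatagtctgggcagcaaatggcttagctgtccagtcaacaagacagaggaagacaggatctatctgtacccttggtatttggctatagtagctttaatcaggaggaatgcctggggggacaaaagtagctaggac
The largest rises were at Kcna7 (chr7:45405710-45405959 on the plus strand), Kcnh4 (chr11:100759779-100760028 on the minus strand) and Kcnmb4 (chr10:116473524-116473773 on the minus strand).
Kcna7: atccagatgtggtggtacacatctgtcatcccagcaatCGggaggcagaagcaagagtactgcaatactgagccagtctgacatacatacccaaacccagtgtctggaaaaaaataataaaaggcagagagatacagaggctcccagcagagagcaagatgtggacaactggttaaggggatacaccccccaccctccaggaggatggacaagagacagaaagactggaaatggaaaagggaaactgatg
Kcnh4: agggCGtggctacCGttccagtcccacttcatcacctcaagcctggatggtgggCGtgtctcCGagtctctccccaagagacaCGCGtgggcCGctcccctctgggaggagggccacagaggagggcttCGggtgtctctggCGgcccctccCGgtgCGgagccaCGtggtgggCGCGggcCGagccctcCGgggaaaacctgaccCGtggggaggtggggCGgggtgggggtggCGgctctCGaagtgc
Kcnmb4: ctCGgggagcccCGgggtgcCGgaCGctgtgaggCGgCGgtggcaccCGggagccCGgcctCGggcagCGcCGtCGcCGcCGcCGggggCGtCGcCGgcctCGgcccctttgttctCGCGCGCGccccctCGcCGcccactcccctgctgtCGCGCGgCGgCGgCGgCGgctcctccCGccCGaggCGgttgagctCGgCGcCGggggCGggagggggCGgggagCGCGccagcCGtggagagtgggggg
The windows of Kcnk16, Kcna5 and Kcnk1 held 0, 3 and 0 CG dinucleotides, and those of Kcna7, Kcnh4 and Kcnmb4 held 1, 20 and 43. By Ensembl gene positions, the windows of Kcna7 and Kcnmb4 lay wholly inside the gene and that of Kcnh4 in part. Those of Kcnk16, Kcna5 and Kcnk1 lay before the gene, so the printed falls and rises do not compare like sequence. Over all members the median was 9, with a range of 0 to 43, and over all genes of the table it was 6, taking the mean where a gene has several windows. By outcome in KO mTEChi, the median was 8 over the 25 members that fell, 20.5 over the 10 that rose, 14 over the 15 that did not pass and 8 over the 17 not tested. The letters TATAAA occurred on either strand in 3 of the 67 members (4.48%) and in 14.3% of all genes. These counts describe the letters of the windows, with no test.

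In mTEChi, 32 tested members fell and 12 rose in KO against WT, and 22 did not pass (edgeR quasi-likelihood test, Benjamini-Hochberg adjusted p under 0.05 over 19310 genes). Of all genes tested, 28.0% were lower and 25.7% higher in KO mTEChi, 53.7% in either direction. The members' shares were 48.5% lower and 18.2% higher, and their median log2 change was -0.64, beside -0.01 over all genes tested. These counts carry the filter with them: 12 members passed it through WT mTEChi, reaching the minimum of 3.33 CPM in at least 4 of its libraries and in at most 1 library of any other group, and 11 of the 12 fell. Of the other 54, 21 fell, 12 rose and 21 did not pass. The 12 members that passed through WT mTEChi were Kcna5, Kcng1, Kcnk9, Kcnt2, Kcnj4, Kcnj10, Kcnj12, Kcne1l, Kcne2, Kcnip1, Kcnmb2 and Kcnmb3. They were tested because they were high in WT mTEChi, so their falls and p-values carry this choice. In bulk RNA, fewer cells of a type and less RNA per cell cannot be told apart. With the term for the 6 libraries, 25 members were lower and 10 higher, and 27 of the 44 calls were kept. Over all genes tested, 3446 of 19310 were lower and 3426 higher with the term, beside 5400 and 4966 in the main fit. Of the 92 members, 23 share exon bases with another gene, 9 of them among the 44, and without strand their reads cannot be told apart.

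**Figure D2:**
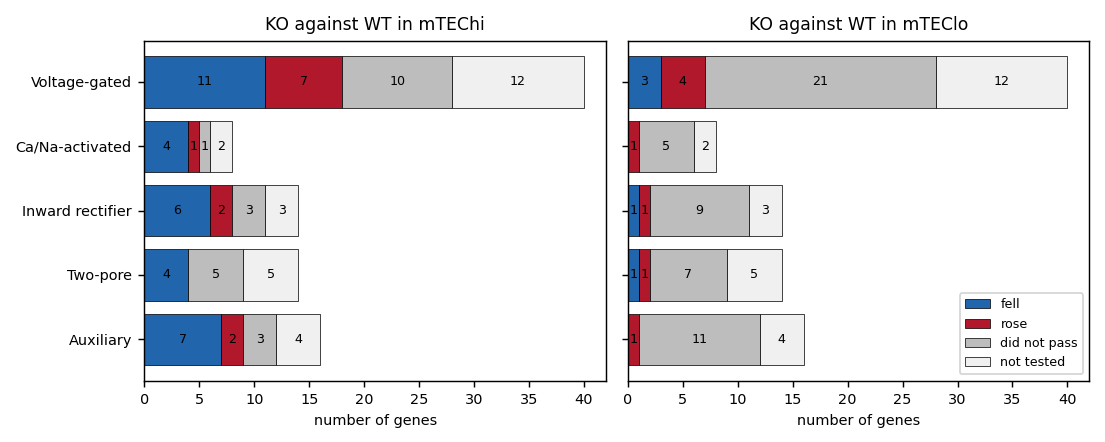
Bars count the members of each family that fell, rose, did not pass or were not tested in KO against WT, in mTEChi on the left and mTEClo on the right. In mTEChi the K2P family had 4 that fell and 0 that rose, and the voltage-gated family 11 that fell and 7 that rose; in mTEClo most members did not pass.

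Of 9 tested K2P background channels, 4 fell, 0 rose and 5 did not pass. Among the falls, Kcnk9 had passed the filter through WT mTEChi. Kcnk16 (ENSMUSG00000023387, chr14:20261376-20269199), an alkaline-sensitive channel known from pancreatic islets, was listed at 0 in all 4 KO mTEChi libraries, against a lowest, median and highest of 12.3, 14.2 and 19.99 CPM in WT mTEChi. Kcnk1 (ENSMUSG00000033998, chr8:125995170-126030685), a weakly inward-rectifying K2P channel, was also at 0 in the 4 KO mTEChi libraries, against 2.26, 5.13 and 7.499 CPM in WT mTEChi. The KO libraries lay below every WT library for both genes. Gene positions are on GRCm38. Against the floor of 3 counts over the group, Kcnk16 was at least 51.0-fold lower (adjusted p = 2.1e-11) and Kcnk1 at least 15.8-fold lower (adjusted p = 1.4e-06) in KO mTEChi. Kcnk5, an acid-inhibited channel known from kidney tubule, had 0, 0.409, 3.08 and 2.51 CPM in the KO mTEChi libraries, against 10.5, 22.5 and 33.6 CPM in WT mTEChi. It fell by 3.85 ± 0.45 on the log2 scale (± SE for all log2 changes; adjusted p = 6.0e-08). Kcnk9, an acid-inhibited channel of cerebellum and adrenal cortex, had 1 count in KO mTEChi and 852 in WT mTEChi, where the libraries ran from 19.2 to 68.2 CPM. Its ratio was 459-fold lower, with a 95% counting interval of 82.2 to 18160. With the term for the 6 libraries, Kcnk9 changed by -5.46 with an adjusted p of 1.0, and the other 3 calls held. Kcnk6, the highest K2P member, averaged 219.7 ± 34.5 CPM in KO mTEChi and 197.6 ± 11.4 CPM in WT mTEChi (adjusted p = 0.52). The stretch-activated members Kcnk2, Kcnk4 and Kcnk10 and the acid-inhibited Kcnk3 did not pass, with changes of -0.47, -0.50, -0.81 and -0.22.

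Voltage-gated members went both ways, with 11 that fell, 7 that rose and 10 that did not pass of 28 tested. Among the falls, Kcna5 and Kcng1 had passed the filter through WT mTEChi. Kcna5 (ENSMUSG00000045534, chr6:126532551-126535412), a delayed rectifier of the cardiac atrium, was at 0 in the 4 KO mTEChi libraries, against 3.87, 6.20 and 8.93 CPM in WT mTEChi. It was at least 21.5-fold lower (adjusted p = 1.9e-07). Kcng1, a silent modifier subunit, was at 0 in KO mTEChi, against 1.86, 4.20 and 7.497 CPM in WT mTEChi. The bound was at least 14.5-fold lower (adjusted p = 2.4e-06), and the call was lost with the term for the 6 libraries (-5.78, adjusted p = 0.096). Kcnc4, a fast-inactivating Shaw-type channel, had 0, 1.23, 0.342 and 0.835 CPM in KO mTEChi, against 3.72, 9.04 and 14.4 CPM in WT mTEChi, a fall of 3.87 ± 0.46 on the log2 scale (adjusted p = 7.1e-08). Kcnh1, the EAG channel, stood at 12.7 to 13.9 CPM in the 4 KO mTEChi libraries, against 24.3, 35.9 and 42.5 CPM in WT mTEChi. It fell by 1.41 ± 0.18 (adjusted p = 2.8e-07). For Kcna5, Kcng1, Kcnc4 and Kcnh1 all KO mTEChi libraries were below all WT ones.

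Kcnh6 (ENSMUSG00000001901, chr11:106008124-106034549) had 472, 416.5, 338.5 and 371 CPM in KO mTEChi, against 164, 225 and 244 CPM in WT mTEChi, with no overlap, and rose by 0.90 ± 0.12 on the log2 scale (adjusted p = 4.9e-07). Kcnh4, an ELK group channel, rose by 1.36, and Kcna7, a Shaker-type channel, by 1.69. Further rises were 0.75 for Kcna3, the main Shaker-type channel of lymphocytes, 0.63 for the silent subunit Kcng3 and 0.51 for Kcna2, known from axons. The calls of Kcna7 and Kcna3 were lost with the term for the 6 libraries (1.40 and 2.38, adjusted p = 0.15 and 0.064), and Kcna3 was also lost without WT replicate 1 (adjusted p = 0.053), WT replicate 6 (0.068) or KO replicate 1 (0.16). The 6 B cell markers, a lineage in which Kcna3 is known, summed to 177 to 259 CPM in KO mTEChi and 82.2 to 106 CPM in WT mTEChi, and the 11 thymocyte markers to 257 to 377 CPM in KO mTEChi and 219 to 252 CPM in WT mTEChi, with no marker of either list at 0 in either group. Of 8 tested thymocyte markers 5 fell and 1 rose in KO mTEChi, and Ptprc, which encodes CD45, averaged 6.09 CPM in KO mTEChi and 22.5 CPM in WT mTEChi. The part of such cells in the Kcna3 result was not tested.

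The remaining falls of the family covered several subgroups. The M-type and epithelial genes Kcnq5, Kcnq1 and Kcnq3 fell by 1.84, 0.85 and 0.74 on the log2 scale, the A-type pore Kcnd3 by 1.58, the delayed rectifier Kcnb2 by 1.20, and Kcnh2, the ERG channel of cardiac repolarisation, by 1.05. Kcnq1 shares 121 exon bases with its antisense gene Kcnq1ot1, which averaged 523 CPM in KO mTEChi and 697 CPM in WT mTEChi, and the libraries keep no strand, so the reads of the pair cannot be told apart. The call of Kcnq1 was lost with the term for the 6 libraries (-0.67, adjusted p = 0.064). Of those that did not pass, Kcnh3 had 86.9 ± 24.6 CPM in KO mTEChi and 68.6 ± 14.9 CPM in WT mTEChi, and Kcnh7 had 65.2 ± 12.7 CPM in KO mTEChi and 69.3 ± 9.26 CPM in WT mTEChi.

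**Figure D3:**
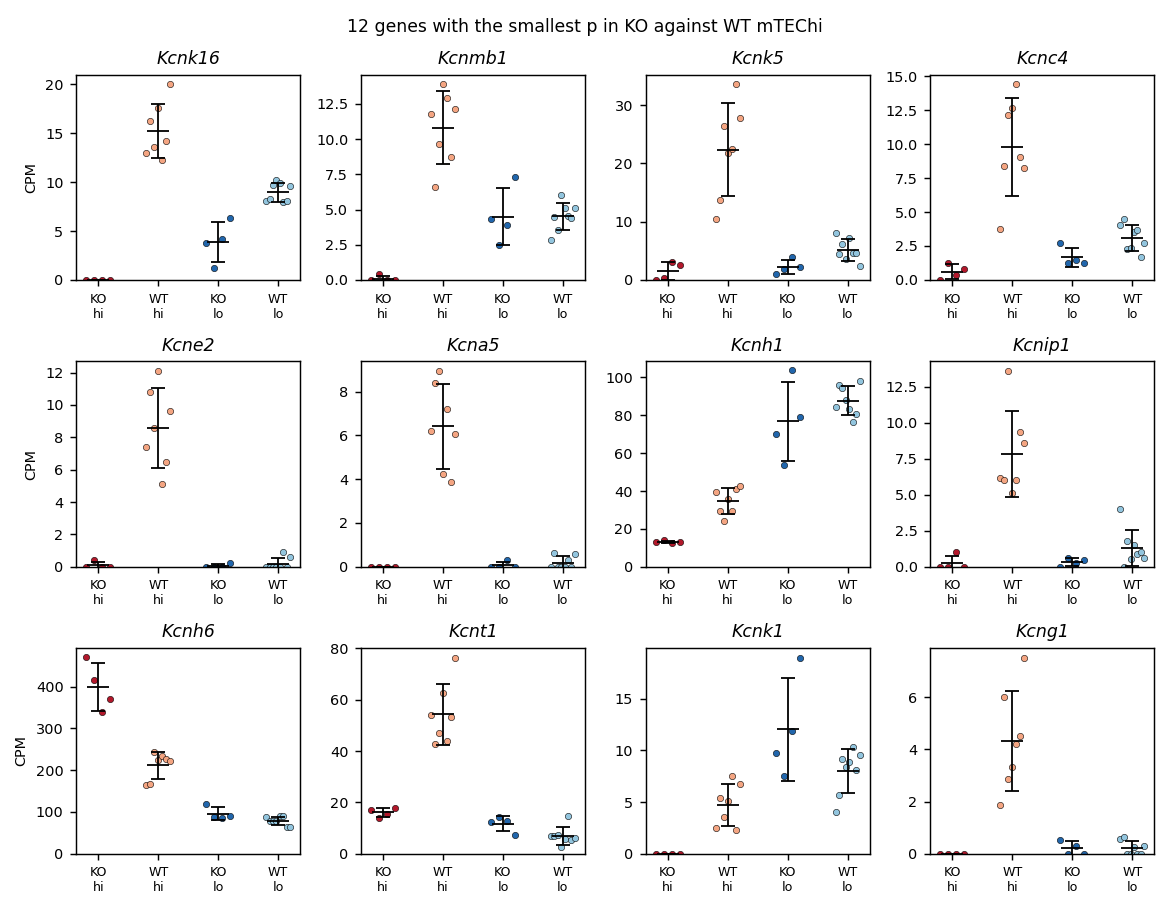
Points are CPM of single libraries for the 12 members with the smallest p in KO against WT mTEChi, with KO mTEChi, WT mTEChi, KO mTEClo and WT mTEClo from left to right; the long bar is the mean and the whiskers SD, cut at 0, and each panel has its own axis. For Kcnh6 the 4 KO mTEChi libraries lie above the 7 WT mTEChi libraries, and for the other 11 genes they lie below; Kcnk1 is at 0 in KO mTEChi and between 7.51 and 18.9 CPM in KO mTEClo.

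Of 6 tested channels gated by calcium or sodium, 4 fell, 1 rose and 1 did not pass. Among the falls, Kcnt2 had passed the filter through WT mTEChi. Kcnt1, a sodium-activated channel of neurons, had 17.1, 13.9, 15.4 and 18.0 CPM in KO mTEChi, against 42.6, 53.2 and 76.4 CPM in WT mTEChi, with no overlap, and fell by 1.81 ± 0.25 (adjusted p = 7.4e-07). Its relative Kcnt2 had 3 counts in KO mTEChi and was 14.0-fold lower, with a counting interval of 4.62 to 69.4, a call lost with the term for the 6 libraries (-3.62, adjusted p = 0.20). Kcnma1 (ENSMUSG00000063142, chr14:23289431-24014491), the BK pore, had 280, 302, 257 and 242 CPM in KO mTEChi, against 169.8, 186 and 203.5 CPM in WT mTEChi, and rose by 0.53 ± 0.08 (adjusted p = 3.0e-06). All 4 KO libraries were above all WT libraries. The small-conductance Kcnn3 fell by 0.50 and the intermediate-conductance Kcnn4, known from lymphocytes and red cells, by 0.69. Both calls were lost with the term for the 6 libraries, at -0.11 and -0.41 (adjusted p = 0.74 and 0.55), and Kcnn4 was also lost without any 1 of WT replicates 3, 5, 6 and 7 and KO replicates 1, 2 and 4 (adjusted p = 0.058 to 0.17). Kcnn1 changed by -0.40 (adjusted p = 0.15).

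Auxiliary subunits had 7 falls, 2 rises and 3 members that did not pass, of 12 tested. Among the falls, Kcne1l, Kcne2, Kcnip1 and Kcnmb2 had passed the filter through WT mTEChi, as had Kcnmb3, which did not pass the test. The partners of the BK pore moved apart. Kcnmb1 (ENSMUSG00000020155, chr11:33963013-33973641), its beta subunit of smooth muscle, had 0, 0.409, 0 and 0 CPM in KO mTEChi, from 1 count, against 6.60, 11.8 and 13.9 CPM in WT mTEChi, and was 111.6-fold lower with a counting interval of 19.8 to 4428 (adjusted p = 2.8e-10). The inactivating subunit Kcnmb2 fell by 2.37, Kcnmb3 changed by -0.49 (adjusted p = 0.32), and the neuronal subunit Kcnmb4 rose by 1.14, to 14.7 ± 3.83 CPM in KO mTEChi, against 6.45 ± 2.11 CPM in WT mTEChi. Kcnmb4 shares 1048 exon bases with 2 antisense genes and Kcnma1 1016 with 1 on the other strand. Kcne2, a partner of Kcnq1 in stomach and thyroid, had 1 count in KO mTEChi, against 5.10, 8.57 and 12.1 CPM in WT mTEChi, and was 85.2-fold lower with an interval of 15.1 to 3384 (adjusted p = 8.3e-08). Kcne1l, of the same group, had 2 libraries of KO mTEChi with a count and was 35.8-fold lower, with an interval of 9.73 to 299. Kcnip1, a calcium-binding partner of A-type channels, had 0, 0, 1.03 and 0 CPM in KO mTEChi, against 5.13, 6.20 and 13.6 CPM in WT mTEChi, and was 26.6-fold lower with an interval of 8.92 to 130.4 (adjusted p = 3.8e-07). Its relatives Kcnip4 and Kcnip3 changed by -1.09 and 0.46, and the cytosolic beta subunit Kcnab2 fell by 1.42. With the term for the 6 libraries, the calls of Kcne2, Kcne1l and Kcnmb2 were lost at changes of -7.88, -3.99 and -1.04 (adjusted p = 0.073, 0.067 and 0.43).

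Among 11 tested inward rectifiers, 6 fell, 2 rose and 3 did not pass. Of the falls, Kcnj4, Kcnj10 and Kcnj12 had passed the filter through WT mTEChi. Kcnj16, a partner of Kcnj10 in kidney tubule, fell by 3.48, with 0 CPM in 3 KO mTEChi libraries and 3.34 CPM in the other, against 3.32, 8.57 and 16.2 CPM in WT mTEChi, so that the groups overlapped by 1 library. Kcnj10, the main inward rectifier of glia, fell by 1.82, and the strong rectifiers Kcnj12 and Kcnj4 by 2.43 and 1.29. The G-protein-gated genes split, with Kcnj9 at -0.90, Kcnj3 at 0.62 and Kcnj6 at 0.64 without passing (adjusted p = 0.24). Kcnj11, the pore of the ATP-sensitive channel of islets, rose by 0.73. Kcnj15 stood at 339.7 ± 16.5 CPM in KO mTEChi and 401.5 ± 27.1 CPM in WT mTEChi, a fall of 0.24 that was lost without WT replicate 2 (adjusted p = 0.052), KO replicate 1 (0.054) or KO replicate 4 (0.055). With the term for the 6 libraries Kcnj12 and Kcnj4 turned to 0.95 and 3.46 without passing (adjusted p = 0.43 and 0.15), and Kcnj10, Kcnj3 and Kcnj9 were lost at changes of -2.17, 0.75 and -0.15 (adjusted p = 0.066, 0.067 and 0.96). Kcnj3 was also lost in males of 5 weeks (0.26, adjusted p = 0.13). The call of Kcnj9 was also lost without WT replicate 3 (adjusted p = 0.072), WT replicate 6 (0.078) or KO replicate 1 (0.078), and that of Kcnj4 without any 1 of WT replicates 4 to 7 and KO replicates 2 to 4 (adjusted p = 0.051 to 0.14).

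Genes that work with or beside these channels were counted from lists of related proteins. Of 13 tested channel partners outside the Kcn names, 4 fell and 5 rose in KO mTEChi, among them Abcc9, the sulfonylurea receptor of muscle, at -5.55 ± 0.54 (adjusted p = 2.3e-09) and Dpp6, a partner of A-type channels, at -1.67 ± 0.19. Of 7 pacemaker and cyclic nucleotide-gated channels, 2 fell and 0 rose, with Cngb1 at -0.74 and Hcn4 at -0.46. Of 18 sodium channel genes, 7 fell and 4 rose. Nalcn, the sodium leak channel, fell by 2.47 ± 0.27, and Scn10a, known from sensory neurons, averaged 0.104 CPM in KO mTEChi from 1 count, against 11.2 ± 3.69 CPM in WT mTEChi. Of 24 calcium channel genes, 13 fell and 7 rose, with Cacna2d2 at -3.34 ± 0.23 and Cacna1i at -4.41 ± 0.47. Of 15 sodium, potassium and proton pump genes, 7 fell and 3 rose, among them the non-gastric proton pump Atp12a at 0.190 CPM in KO mTEChi and 24.5 ± 6.99 CPM in WT mTEChi. The 28.0% lower and 25.7% higher of all genes tested are the background for these counts too.

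Markers of other cell types were also counted between the genotypes in mTEChi, where 28.0% of all genes tested were lower and 25.7% higher in KO. In KO against WT, 5 thymocyte markers fell and 1 rose of 8 tested, 1 B cell marker fell and 3 rose of 5, and 5 myeloid markers fell and 1 rose of 7. Fibroblast markers fell in 4 and rose in 1 of 7, with sums of 194 to 212 CPM in KO and 199 to 370 CPM in WT. Endothelial markers fell in 2 and rose in 0 of 4, with sums of 44.2 to 68.8 CPM in KO and 62.2 to 90.0 CPM in WT. Cortical epithelial markers fell in 3 and rose in 2 of 7, with sums of 630 to 755 CPM in KO and 526 to 634 CPM in WT, and medullary ones fell in 2 and rose in 2 of 12. No listed marker was at 0 in either mTEChi group. The part of these cells in the channel results was not tested.

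In mTEClo, 5 tested members fell and 8 rose in KO against WT, and 53 did not pass. Of all genes, 9.69% were lower and 12% higher in KO mTEClo, 21.7% in either direction, and the members' shares were 7.58% and 12.1%. Their median log2 change was 0.14, beside 0.01 over all genes tested. Kcnq3 (ENSMUSG00000056258, chr15:65986387-66286642) had 498.5, 506, 415.5 and 443 CPM in KO mTEClo, against 693, 779 and 833 CPM in WT mTEClo, with no overlap, and fell by 0.66 ± 0.12 (adjusted p = 1.3e-04). Kcnc1, a channel of fast-spiking neurons, had 16.2, 10.0, 11.9 and 13.1 CPM in KO mTEClo, against 17.1, 25.1 and 30.2 CPM in WT mTEClo, and fell by 0.94 ± 0.23 (adjusted p = 0.0041). Kcnk16 had 3.79, 1.25, 4.17 and 6.31 CPM in KO mTEClo, against 7.93, 8.93 and 10.2 CPM in WT mTEClo, and fell by 1.07 ± 0.26 (adjusted p = 0.0044). For these 3 genes every KO mTEClo library was below every WT one. Kcnj16 fell by 1.50 ± 0.37, at 4.33, 6.26, 9.53 and 11.4 CPM in KO mTEClo, against 8.06, 17.5 and 33.1 CPM in WT mTEClo, with overlap. The WT mTEClo libraries of 4 weeks had 15.3 to 33.1 CPM of Kcnj16 and those of 5 weeks 8.06 to 14.0 CPM. Its call was lost with age in the fit (-1.09, adjusted p = 0.26), without a sex term (-1.13, 0.061) and without the 6 libraries under 2000000 counts (-0.94, 0.11). That of Kcnc1 was lost with age in the fit (-0.44, adjusted p = 0.41). Males of 5 weeks leave 1 library in WT mTEClo, so only changes are given: -1.42 for Kcnj16, -0.51 for Kcnc1 and -1.60 for Kcnk16. Kcnq5 fell by 1.38, and its call was lost without any 1 of KO replicates 1 to 3 and WT replicates 3 and 6 (adjusted p = 0.056 to 0.11).

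Kcna2 (ENSMUSG00000040724, chr3:107101146-107115005) had 87.2, 95.2, 79.2 and 69.9 CPM in KO mTEClo, against 28.0, 33.1 and 39.6 CPM in WT mTEClo, with no overlap, and rose by 1.38 ± 0.14 (adjusted p = 2.5e-08). Kcnj3 had 23.8, 19.4, 15.5 and 23.8 CPM in KO mTEClo, against 6.30, 7.31 and 11.3 CPM in WT mTEClo, and rose by 1.22 ± 0.19 (adjusted p = 4.0e-05), again with no overlap. Kcng3 rose by 1.14 ± 0.29, at 6.496, 9.39, 2.98 and 6.56 CPM in KO mTEClo, against 1.80, 2.37 and 4.33 CPM in WT mTEClo, where the ranges overlapped. Kcnh7, of the ERG group, had 107, 82.0, 90.5 and 109.8 CPM in KO mTEClo, against 53.7, 66.4 and 102 CPM in WT mTEClo, and rose by 0.52 ± 0.15 (adjusted p = 0.011). It shares 696 exon bases with Gca on the other strand, which averaged 70.8 CPM in KO mTEClo and 48.9 CPM in WT mTEClo. Kcnn4, Kcna1, Kcnip2 and Kcnk2 rose by 0.95, 1.40, 0.92 and 0.67 with overlapping ranges. Single libraries decided several of these calls: Kcnh7 was lost without KO replicate 4 (adjusted p = 0.052), Kcnn4 without KO replicate 1 (0.075), Kcna1 without KO replicate 3 or 4 or WT replicate 4 (0.069 to 0.15), Kcnip2 without these or WT replicate 3 (0.076 to 0.19), and Kcnk2 without KO replicate 3 or 4 or WT replicate 4 or 6 (0.067 to 0.24).

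Several calls in mTEClo depended on which libraries entered, whereas Kcnq3, Kcna2 and Kcnj3 kept theirs in every alternative run. Without KO replicates 3 and 4, 8 members were lower and 7 higher, beside 1780 lower and 1841 higher of all 20164 genes tested. Kcna1 then stood at -0.03 and Kcnk2 at -0.05, and Kcnc1, Kcnh7 and Kcnip2 no longer passed (adjusted p = 0.055, 0.089 and 0.60). Without replicates 1 and 2, Kcng3, Kcnn4 and Kcnq5 no longer passed (adjusted p = 0.061, 0.052 and 0.14). Leaving out KO replicate 3, KO replicate 4 or WT replicate 4 left 5 higher members. With age in the fit, 6 of the 13 calls were kept. Kcnk6 did not pass (adjusted p = 0.99), and its KO libraries ranged widely, at 61.2 and 76.4 CPM in replicates 1 and 2 and 23.8 and 20.9 CPM in replicates 3 and 4, against 39.4 to 51.2 CPM in WT mTEClo. Cortical epithelial markers rose in 6 of 7 in KO mTEClo, with sums of 367 to 580 CPM in KO and 247 to 307 CPM in WT. B cell marker sums were 27.6 to 38.6 CPM in KO and 13.1 to 20.7 CPM in WT, myeloid sums 83.9 to 117 CPM in KO and 28.0 to 61.7 CPM in WT, and fibroblast sums 76.9 to 194 CPM in KO and 64.2 to 97.7 CPM in WT. By single markers, 0 fell and 3 rose of 5 tested for B cells, and 0 fell and 2 rose of 7 for fibroblasts. Of 7 myeloid markers 1 fell and 1 rose, with a median log2 change of -0.28. The endothelial marker Cdh5 was at 0 in KO mTEClo and Cldn5 in WT mTEClo. Their part in the channel results was not tested.

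The difference between the KO effect in mTEChi and that in mTEClo was tested for each gene in the same fit. It was lower in mTEChi for 23 members and higher for 5, and 38 did not pass, beside 14.0% lower and 10.8% higher of all genes tested. The members' median difference was -0.86, beside -0.02 over all genes. These values carry the filter with them, as they include the 12 members that passed it through WT mTEChi. Of those, Kcng1, Kcne1l, Kcnj12 and Kcnj10 were among the 23. Kcnk1 differed by -7.38 ± 0.94 (adjusted p = 2.2e-06) and was at 0 in KO mTEChi, so that the fitted size depends on the prior count, while its KO mTEClo libraries held 9.74, 7.51, 11.9 and 18.9 CPM, against 4.02, 8.65 and 10.4 CPM in WT mTEClo (adjusted p = 0.056). Kcnmb1 differed by -6.34 ± 0.65 (adjusted p = 3.8e-08), with 4.33, 2.51, 3.87 and 7.28 CPM in KO mTEClo, against 2.87, 4.51 and 6.03 CPM in WT mTEClo. Kcnk16, also at 0 in KO mTEChi, differed by -7.35 ± 0.80, having fallen in both gates. Kcng1, Kcne1l, Kcnj12, Kcnc4, Kcnk5 and Kcnj10 differed by -6.73, -5.02, -3.33, -3.11, -2.77 and -2.53. Their levels in KO mTEClo were low, with means from 0.210 CPM for Kcng1 up to 2.255 CPM for Kcnk5, and the call of Kcng1 was lost without KO mTEClo replicate 1 or 3 (adjusted p = 0.083 and 0.081). The call of Kcnj12 was lost without KO mTEClo replicates 1 and 2 (-1.25, adjusted p = 0.53), with the term for the 6 libraries (-1.26, 0.52) and without the 6 libraries under 2000000 counts (-1.35, 0.49). These settings are not separate checks. Replicates 1 and 2 of KO mTEClo are the only KO libraries under 2000000 counts and the only ones not set apart.

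Among differences of moderate size was Kcnt1 at -2.45 ± 0.37 (adjusted p = 1.7e-05). Kcnt1 had 12.4, 14.4, 12.8 and 7.29 CPM in KO mTEClo, against 2.62, 6.59 and 14.6 CPM in WT mTEClo. The 5 genes with a higher KO effect in mTEChi were Kcnmb4 at 1.62, Kcnj11 at 0.81, Kcnma1 at 0.74 ± 0.11, Kcnh6 at 0.63 and Kcnip3 at 0.52. Kcnma1 had 278, 249, 298 and 279 CPM in KO mTEClo, against 295, 320 and 348 CPM in WT mTEClo, a change of -0.22 there (adjusted p = 0.050). Further negative differences were -2.0 for Kcna1, -1.89 for Kcnab2, -1.71 for Kcnip2, -1.64 for Kcnn4, -1.62 for Kcnd3, -1.28 for Kcnb2, -1.22 for Kcnh1, -0.92 for Kcnq1, -0.87 for Kcna2, -0.84 for Kcnn3 and -0.58 for Kcnh7. Of 23 fits that each left out 1 library, Kcnip3 and Kcnh7 lost this call in 6, Kcnj11 in 4, and Kcna1 and Kcnb2 in 1. The comparisons in mTEChi and mTEClo share no library. Of the 32 members that fell in mTEChi, 4 also fell in mTEClo (Kcnj16, Kcnk16, Kcnq3 and Kcnq5), or 4 of the 5 that fell there, and Kcnn4 rose. Of the 12 that rose in mTEChi, Kcna2, Kcng3 and Kcnj3 also rose in mTEClo, 3 of its 8. Over all genes tested, 60.2% of those that fell in mTEClo also fell in mTEChi, which was 20.9% of those that fell in mTEChi, and 60.3% of those that rose in mTEClo also rose in mTEChi, which was 28.1% of those that rose there. Without KO mTEClo replicates 3 and 4, 21 differences passed, of which 14 were among the 28, and of the 5 higher ones Kcnma1 alone still passed. Over all 20164 genes tested in that fit, 2339 differences were lower and 1855 higher. With the term for the 6 libraries, 33 members passed, beside 2795 lower and 2651 higher of all 19310 genes tested. Kcng1, Kcnh7 and Kcnip3 were lost there at -6.37, -0.57 and 0.51 (adjusted p = 0.072, 0.051 and 0.050).

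**Figure D4:**
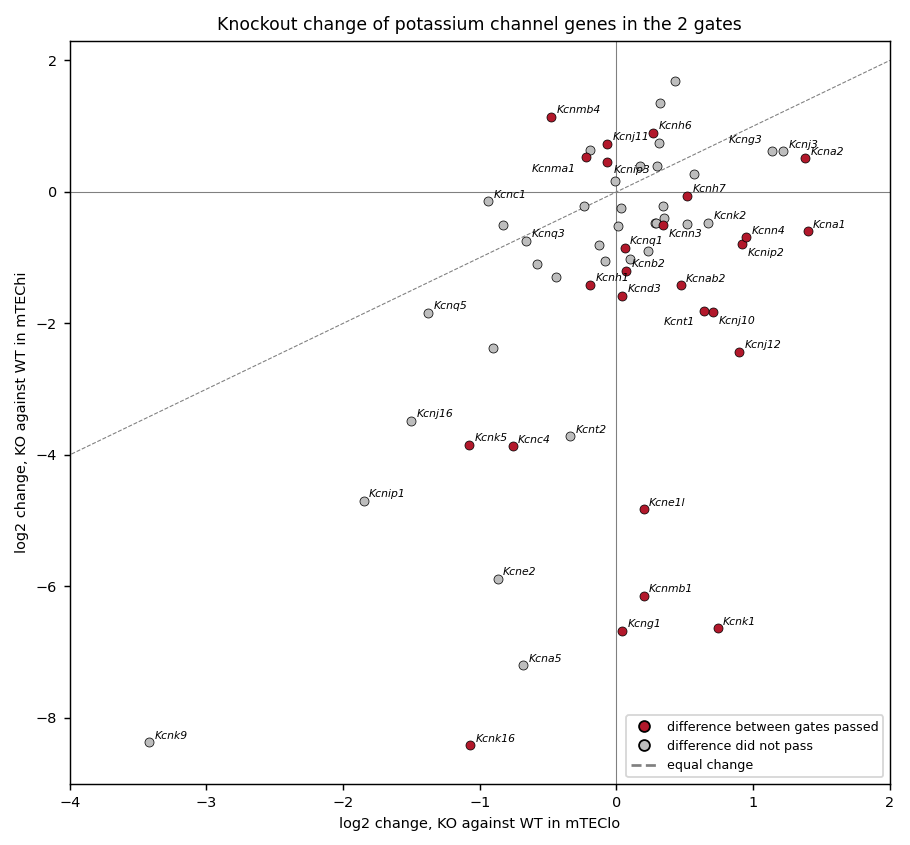
Each point is a tested member, placed by its log2 change in KO against WT in mTEClo (horizontal) and in mTEChi (vertical); red points passed the test of the difference between gates and the dashed line marks equal change. Kcnk1, Kcng1, Kcnmb1 and Kcne1l lie near 0 or above on the horizontal axis and below -4 on the vertical one, and Kcnmb4 is the highest of the red points. Fitted changes of genes at or near 0 depend on a prior count.

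Within WT, 37 members were higher and 20 lower in mTEChi than in mTEClo, and 9 did not pass. Of all genes, 36.7% were higher and 33.4% lower in WT mTEChi, 70.1% in either direction, and the members' shares were 56.1% and 30.3%, with a median log2 change of 0.80 beside 0.00 over all genes. All 12 members that passed the filter through WT mTEChi were among the 37, and of the other 54, 25 were higher, 20 lower and 9 did not pass. Kcnq3 had 140, 172 and 214 CPM in WT mTEChi, against 693, 779 and 833 CPM in WT mTEClo, a change of -2.16 ± 0.098 (adjusted p = 1.1e-17). The ranges of the gates did not overlap. Kcnj3 was at 53.1, 56.1 and 70.7 CPM in WT mTEChi and 6.30, 7.31 and 11.3 CPM in WT mTEClo, a change of 2.79 ± 0.15. Kcng3 was at 24.6, 27.6 and 37.1 CPM in WT mTEChi and 1.80, 2.37 and 4.33 CPM in WT mTEClo, 3.44 ± 0.19. Kcna2 was at 99.0, 132 and 140.5 CPM in WT mTEChi and 28.0, 33.1 and 39.6 CPM in WT mTEClo, 1.89 ± 0.11. The gates did not overlap for these 3 genes either.

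Further members set the gates apart in WT. Kcnt1 was higher in WT mTEChi by 2.96 ± 0.20, Kcnh6 by 1.44 ± 0.10 (63.1, 78.4 and 90.3 CPM in WT mTEClo) and the small-conductance Kcnn1 by 2.58 ± 0.21, at 11.8, 27.1 and 35.3 CPM in WT mTEChi and 2.36, 4.05 and 6.60 CPM in WT mTEClo. Kcnma1 was lower in WT mTEChi by 0.78 ± 0.065. Genes higher in WT mTEChi by over 4 on the log2 scale included Kcne2 (5.11), Kcnk9 (5.03), Kcna5 (4.92) and Kcng1 (4.37). All of them passed the filter through WT mTEChi, so they were tested because they were high there. The same holds for Kcnt2, Kcnj12, Kcnj10, Kcne1l, Kcnj4, Kcnip1, Kcnmb3 and Kcnmb2 below. Kcna3 (3.64), Kcnj9 (3.53), Kcnt2 (3.48), Kcnj12 (3.36), Kcnj10 (2.95), Kcne1l (2.91), Kcnj4 (2.90), Kcng4 (2.79), Kcnip1 (2.58), Kcnk10 (2.53), Kcnk6 (2.21), Kcnk5 (2.16), Kcna1 (2.10) and Kcnmb3 (2.00) followed. Smaller rises were seen for Kcnmb2 (1.90), Kcnc4 (1.77), Kcnh4 (1.52), Kcnq5 (1.48), Kcnh3 (1.27), Kcnmb1 (1.26), Kcnn4 (0.91), Kcnk16 (0.75), Kcnab1 (0.53), Kcnd1 (0.46) and Kcnj15 (0.22).

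Lower in WT mTEChi were the silent subunit Kcns3 (-2.93), the mechanosensitive Kcnk2 (-2.89), Kcnb2 (-2.07), Kcnh1 (-1.34), Kcnj16 (-1.34), Kcnn3 (-1.22), Kcnh8 (-1.12), Kcnd3 (-1.01), Kcnh2 (-0.99), Kcna7 (-0.81), Kcnj2 (-0.78), Kcnk1 (-0.77), Kcnk4 (-0.69), Kcnq1 (-0.52), Kcnj11 (-0.39), Kcnc1 (-0.39) and Kcnip3 (-0.25). Kcnk9 was at 0 to 0.336 CPM in 7 WT mTEClo libraries and at 16.7 CPM in the other. Of the 15 fits that left out 1 WT library, Kcna7 lost its call in 10, Kcnc1 and Kcnd1 in 9, Kcnj11 in 5 and Kcnip3 in 4 (adjusted p up to 0.12), and Kcnj15 was lost without WT mTEClo replicate 5 (adjusted p = 0.055) and Kcnk4 without WT mTEChi replicate 5 (0.061). B cell, thymocyte, myeloid and endothelial marker sums were also higher in WT mTEChi, at 82.2 to 106, 219 to 252, 277 to 334 and 62.2 to 90.0 CPM, against 13.1 to 20.7, 38.8 to 54.1, 28.0 to 61.7 and 32.9 to 60.6 CPM in WT mTEClo. Fibroblast marker sums were 199 to 370 CPM in WT mTEChi and 64.2 to 97.7 CPM in WT mTEClo, and cortical epithelial sums 526 to 634 CPM in WT mTEChi and 247 to 307 CPM in WT mTEClo, with 4 of 7 tested markers higher and 1 lower in each list. Of the first 4 lists, 5 of 5, 7 of 8, 7 of 7 and 3 of 4 tested markers were higher, and their part in the gate difference was not tested.

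Without Aire, 16 members were higher and 21 lower in mTEChi than in mTEClo, and 29 did not pass. The background in KO was 29.2% higher and 28.0% lower, 57.2% in either direction, and the members' shares were 24.2% and 31.8%, with a median of 0.00. Kcnq3 was at 109, 133, 75.7 and 79.8 CPM in KO mTEChi and 415.5 to 506 CPM in KO mTEClo, a change of -2.23 ± 0.14 (adjusted p = 1.5e-14). Kcnh1 changed by -2.56 ± 0.19, at 12.7 to 13.9 CPM in KO mTEChi and 70.4, 53.9, 103.9 and 78.9 CPM in KO mTEClo. Kcnn3 was at 29.0, 31.1, 27.4 and 26.7 CPM in KO mTEChi and 116, 156.5, 109 and 98.8 CPM in KO mTEClo, a change of -2.06 ± 0.16. Kcnh6 was higher in KO mTEChi by 2.07 ± 0.14, at 338.5 to 472 CPM, against 119, 87.0, 86.1 and 89.6 CPM in KO mTEClo. No ranges overlapped for these 4 genes.

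Other members higher in KO mTEChi than in KO mTEClo included Kcna3 (4.08), Kcng3 (2.93), Kcng4 (2.90), Kcnh4 (2.56), Kcnj9 (2.40), Kcnk6 (2.38), Kcnj3 (2.19), Kcnj4 (2.05), Kcnk10 (1.86), Kcnn1 (1.83), Kcnmb4 (1.81), Kcnh3 (1.50) and Kcna2 (1.02). Listed at 0 in KO mTEChi, Kcnk1 was at least 40.2-fold lower there and Kcnk16 at least 13.0-fold lower, and Kcnmb1, with 1 count, was 50.6-fold lower with an interval of 8.70 to 2033. Further members lower in KO mTEChi were Kcns3 (-4.05), Kcnk2 (-4.02), Kcnb2 (-3.34), Kcnj16 (-3.33), Kcnd3 (-2.64), Kcnh2 (-1.96), Kcnh8 (-1.88), Kcnab2 (-1.65), Kcnq1 (-1.43), Kcnip2 (-1.33), Kcnj13 (-1.12), Kcnj2 (-0.75), Kcnn4 (-0.72) and Kcnh7 (-0.58). Of the 8 fits that left out 1 KO library, the calls of Kcnj13, Kcnj4 and Kcnn4 were lost in 5 each (adjusted p = 0.051 to 0.33). Kcnj13 also shares 623 of its 1270 exon bases with Gigyf2 on the other strand, where reads cannot be told apart. B cell, thymocyte and myeloid marker sums were 177 to 259, 257 to 377 and 321 to 371 CPM in KO mTEChi. In KO mTEClo they were 27.6 to 38.6, 42.6 to 65.5 and 83.9 to 117 CPM. Of the tested markers, 5 of 5, 4 of 8 and 4 of 7 were higher in KO mTEChi and 0 lower. Fibroblast sums were 194 to 212 CPM in KO mTEChi and 76.9 to 194 CPM in KO mTEClo, with 2 of 7 higher and 3 lower. Endothelial sums were 44.2 to 68.8 and 47.6 to 89.8 CPM, with 2 of 4 higher and 1 lower. Cortical epithelial sums were 630 to 755 and 367 to 580 CPM, with 3 of 7 higher and 4 lower. The part of such cells in these differences was not tested. The gate contrast in KO shares no library with the one in WT, and 14 members were higher in mTEChi in both, of 16 in KO and 37 in WT. Another 14 were lower in both, of 21 in KO and 20 in WT, and 3 were lower in KO and higher in WT (Kcnk16, Kcnmb1 and Kcnn4). Of all genes tested that were higher in KO mTEChi 78.7% were also higher in WT mTEChi, which was 62.6% of those higher in WT. Of those lower in KO mTEChi 76.8% were also lower in WT mTEChi, which was 64.3% of those lower in WT, and 6.56% were higher in WT mTEChi.

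**Figure D5:**
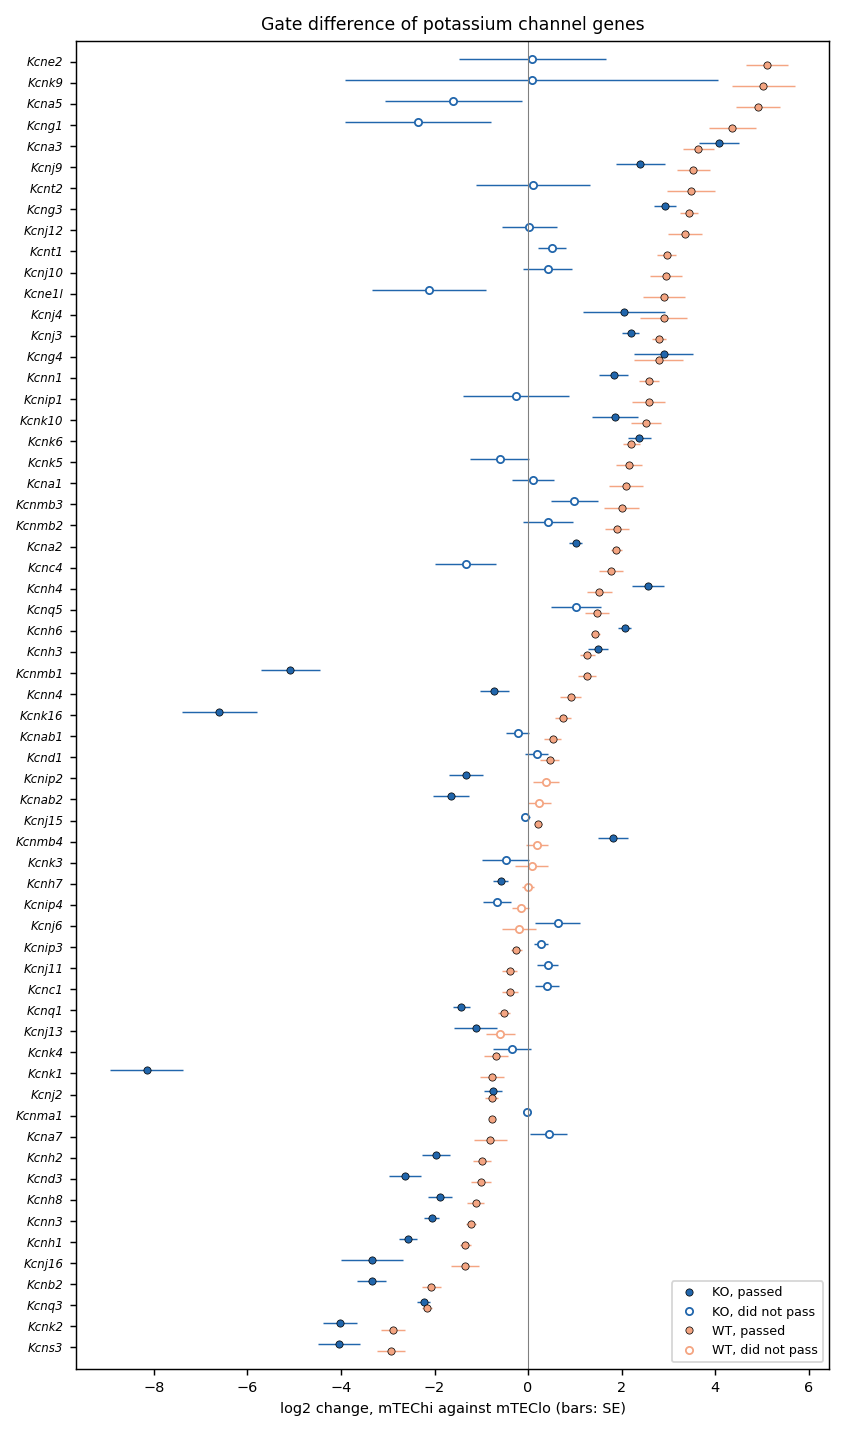
Log2 changes of mTEChi against mTEClo for tested members, KO in blue above WT in orange, with bars for SE and filled points for those that passed; members are sorted by the WT value. At the top, Kcne2, Kcnk9, Kcna5 and Kcng1 have KO values that did not pass and WT values over 4, while Kcnk16 and Kcnk1 have KO values below -6. Kcne2, Kcnk9, Kcna5 and Kcng1 were tested because they were high in WT mTEChi.

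The 26 members that were not tested had group means of at most 3.52 CPM. Their median level was 0.189 CPM in KO mTEChi and 1.26 CPM in WT mTEChi, and 0.213 CPM in KO mTEClo and 0.272 CPM in WT mTEClo. Of the 26, 8 were at 0 in KO mTEChi and 0 in WT mTEChi, and 7 and 3 in KO and WT mTEClo. The mean was highest in WT mTEChi for 21 of them, and no share over all untested genes was taken. Examples are the cardiac beta subunit Kcne1, at 0.407 CPM in KO mTEChi and 3.52 CPM in WT mTEChi, the silent subunit Kcnf1, at 0 CPM in KO mTEChi and 3.35 CPM in WT mTEChi, and the EAG relative Kcnh5, at 0.190 CPM in KO mTEChi and 2.99 CPM in WT mTEChi. These 3 were picked after their values were seen, and no test was made on them.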

How the data were processed

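Raw read counts per Ensembl gene in 23 libraries were deposited by the authors. Per the labels' protocols, not-so-random primers with oligo dT started reverse transcription and Tn5 cut the product, and no strand is kept. The submitters' processing notes name the builds GRCm38 and mm10 and, in no stated order, edgeR, HTSeq 0.11.2, Picard 2.21.1, fastp 0.20.0, SAMtools 1.9 and STAR 2.7.3a. A deposited normalized table (a signal, with its scaling not given in the sources used here) of 20236 genes entered 1 alternative, with limma 3.58.1 on log2(value + 1).

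All 23 libraries were fitted with group and sex in edgeR 4.0.16 (R 4.3.3): filterByExpr by group at a minimum count of 10, TMM factors, robust quasi-likelihood, and Benjamini-Hochberg adjustment over 19310 genes with a threshold of 0.05. SE is the log2 change divided by the square root of F. CPM use library totals times their TMM factors. Counting intervals (95%, exact) and floors (3 counts per group) cover counting error only. The fit was tested on simulated counts.

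The members, lists and tests were chosen with earlier results of these data known. Values per library are given for the 12 members of smallest p in KO against WT mTEChi, 8 in mTEClo, 10 between gates in WT, 5 in KO and 6 of the difference, and other passing members by log2 change. Kcnmb4, Kcnk6 and further members given with group values were named beyond this rule after their values were seen. Results of some genes are not reported here. Alternatives were the stricter threshold of 0.01, RLE factors, no filter, DESeq2 1.42.0, other covariates, subsets of libraries, a replicate block and leaving out each library.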

Additional observations from a re-analysis of the deposited data

Results flagged for a closer look

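Of 208 sets of libraries examined, each a called member in a group with a mean of at least 1 CPM, 11 held 1 library far from the others by Dixon's criterion, which chance meets in about 1 in 20. In KO mTEChi this was Kcnj4 at 4.39 CPM in replicate 1, with the others at 0.685 to 1.25. In WT mTEChi it was Kcna7 at 3.90 CPM in replicate 5 (others 0.600 to 1.78) and Kcnj10 at 16.5 CPM in replicate 6 (others 3.21 to 8.05). In KO mTEClo it was Kcnh6 at 119 CPM in replicate 1 (others 86.1 to 89.6).

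In WT mTEClo, 3 genes stood apart in replicate 1: Kcnk9 at 16.7 CPM (others 0 to 0.336), Kcnip1 at 4.02 CPM (others 0 to 1.78) and Kcne1l at 3.45 CPM (others 0 to 1.27). Another 3 did so in replicate 5: Kcnh7 at 102 CPM (others 53.7 to 71.8), Kcnd3 at 27.7 CPM (others 16.8 to 20.8) and Kcnab2 at 6.62 CPM (others 3.82 to 5.04). Kcnt1 stood at 14.6 CPM in replicate 6 (others 2.62 to 7.14).

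The KO effect on the log2 scale differed between mTEChi and mTEClo for members by the edgeR interaction test. The difference, mTEChi minus mTEClo, was -7.38 for Kcnk1, -7.35 for Kcnk16, -6.73 for Kcng1, -6.34 for Kcnmb1 and -5.02 for Kcne1l. It was -3.33 for Kcnj12, -3.11 for Kcnc4, -2.77 for Kcnk5, -2.53 for Kcnj10, -2.45 for Kcnt1 and -2.0 for Kcna1. For Kcnab2 it was -1.89, for Kcnip2 -1.71, for Kcnn4 -1.64, for Kcnd3 -1.62, for Kcnb2 -1.28 and for Kcnh1 -1.22. Smaller values were -0.92 for Kcnq1, -0.87 for Kcna2, -0.84 for Kcnn3 and -0.58 for Kcnh7. The positive ones were 0.52 for Kcnip3, 0.63 for Kcnh6, 0.74 for Kcnma1, 0.81 for Kcnj11 and 1.62 for Kcnmb4. Kcnk1, Kcnk16 and Kcng1 were at 0 in KO mTEChi, and Kcnmb1 and Kcne1l held 1 and 2 counts there. Their fitted sizes depend on the prior count. Kcng1, Kcne1l, Kcnj12 and Kcnj10 passed the filter through WT mTEChi, and the call of Kcng1 was lost without KO mTEClo replicate 1 or 3.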

How the results depend on the processing

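Members called were 32 lower and 12 higher in KO against WT mTEChi, and 37 higher and 20 lower between gates in WT. They were 37 between gates in KO and 28 for the difference. These counts stayed within 1.5 times under every alternative run. In this order, leaving out each library gave 28 to 34, 11 to 13, 35 to 37, 16 to 20, 34 to 37 and 26 to 34. Without a filter on low counts, 47 members were lower in KO mTEChi and 50 higher in WT mTEChi. Members that the filter had left out entered there too. That fit tested 42889 genes in place of 19310, with 7829 lower in KO mTEChi and 12690 higher in WT mTEChi. Males of 5 weeks leave 1 library in WT mTEClo, so only changes are given for comparisons with that group. The difference of Kcna1 was -0.62 there and that of Kcnb2 -0.42, beside -2.0 and -1.28 in the main fit. The counts in KO against WT mTEClo moved more. The 5 lower members became 9 with the term for the 6 KO libraries and 8 without KO replicates 3 and 4. Of all genes tested, 1761 of 19310 were lower with the term and 1780 of 20164 without these replicates. When 1 library was left out, 4 to 6 members were lower. The 8 higher members became 3 at an adjusted p under 0.01, 3 with age in the fit and 5 in males only. Of all genes tested, 825 of 19310 were higher with age in the fit and 1985 of 18285 in males only. When 1 library was left out, 5 to 9 members were higher. Changes turned sign for Kcnj12 (0.95) and Kcnj4 (3.46) in KO mTEChi with the term for the 6 libraries. In KO mTEClo they did so for Kcna1 (-0.02 with the term, -0.03 without replicates 3 and 4), Kcnk2 (-0.04 and -0.05) and, in males of 5 weeks, Kcnip2 (-0.27), and between gates in WT males of 5 weeks for Kcnc1 (0.09) and Kcnj15 (-0.02). The cause was not tested. With the replicate number as a block, 28 members were lower and 13 higher in KO mTEChi, 5 and 7 in KO mTEClo, 36 higher and 18 lower in WT mTEChi, 36 called between gates in KO and 26 for the difference, and 40 of the 44 calls in mTEChi held; of 27 same-number pairs of libraries 2 correlated over 0.1, with a range of -0.146 to 0.137, so the numbers were not taken as pairs. Library totals of 1602125 to 3938588 counts limit what can be said of members near 0.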

Other observations

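Other ion transport genes also differed between the gates. Of 7 tested pacemaker and cyclic nucleotide-gated channel genes, 6 were higher in KO mTEChi than in KO mTEClo, and all 7 were higher in WT mTEChi than in WT mTEClo. Of 24 tested calcium channel genes, 10 were higher and 5 lower in KO mTEChi, and 18 were higher and 3 lower in WT mTEChi. Of 18 tested sodium channel genes, 8 were higher and 7 lower in KO mTEChi, and 9 were higher and 6 lower in WT mTEChi. In KO against WT mTEClo, 1 calcium channel gene fell and 5 rose, and 2 sodium channel genes fell and 6 rose. Of all genes tested, 29.2% were higher and 28.0% lower in KO mTEChi than in KO mTEClo, and 36.7% higher and 33.4% lower in WT mTEChi than in WT mTEClo. In KO against WT mTEClo, 9.69% of all genes tested were lower and 12% higher. These lists were chosen with earlier results of these data known.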
